A study of Rattus norvegicus with 10 samples.

Results

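The mRNAs of 10 rat genes of the endoplasmic reticulum and amino acid stress responses were measured in liver: Hspa5, Hsp90b1, Dnajb9, Herpud1, Xbp1, Atf4, Ddit3, Atf3, Trib3 and Asns. Every probe set whose platform annotation gave one of these symbols was taken, which gave 12 of the 31099 probe sets of the array, 3 of them for Trib3 and 1 for each other gene. Of the 12, 11 were bright enough to be tested among 18623 probe sets, and the Atf3 probe set was not. The animals were male rats of the outbred Wistar stock, kept for 12 weeks either on standard chow or on 1 of 4 high-fat diets, in which 42% of the energy came from fat. The fat was lard, olive oil or coconut fat, or else fish oil, taken here to be the cod liver oil in the design's list of fats. All animals, chow controls included, were fasted overnight before a piece of a liver lobe was frozen, so no group was fed at sampling. Each diet had 2 samples on 1 array each, 10 arrays in all, and the labels do not say whether a sample was 1 rat or a pool. The P-values therefore measure only the spread between these samples. The comparisons asked how the diets, and the types of fat among them, differed in hepatic expression.

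The endoplasmic reticulum folds secreted and membrane proteins, a heavy duty in hepatocytes, and unfolded protein there activates the sensors IRE1, ATF6 and PERK. IRE1 splices Xbp1 mRNA into the form that encodes an active transcription factor, and together with ATF6 this factor induces chaperones such as Hspa5 (BiP), Hsp90b1 (GRP94) and Dnajb9 (ERdj4) and the degradation component Herpud1. PERK, like the amino acid sensor GCN2, phosphorylates eIF2alpha, which favours translation of Atf4; ATF4 in turn drives Ddit3 (CHOP), Atf3, Trib3 and Asns. Splicing of Xbp1 and translation of Atf4 are steps that the level of an mRNA does not report.

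The promoters of these genes are shown first because the chaperone arm is known by a shared element in them. RefSeq promoter windows on GRCr8 were found for 9 of the 10 genes (not for Atf3), and the 250 bases before each transcription start were searched on both strands. The endoplasmic reticulum stress response element, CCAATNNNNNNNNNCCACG, was found in Hspa5, Hsp90b1 and Xbp1, against 22 of 33469 promoters, or 0.0657%. It lay 43 to 25 bases before the start of Hspa5 and 65 to 47 bases before that of Xbp1. Hsp90b1 held it at 176 to 158 bases on the sense strand and at 72 to 54 bases on the opposite strand. Its second form, ATTGGNCCACG, lay 124 to 114 bases before the start of Herpud1 and was found in 14 promoters, or 0.0418%. The element TGATGNAA, which C/EBP and ATF4 dimers bind, was found on the opposite strand in Herpud1 at 184 to 177 bases and in Trib3 at 21 to 14 bases, and in 3.4% of promoters. The CCAAT box, which is part of both stress elements (reversed in the second), was found in 6 of the 9 members and in 34% of promoters. The core TGACG was found in 6 members and in 18.2% of promoters. The longer TGACGTCA and TGACGTGG, both of which contain that core, were found in 0 members and in 1.59% and 0.52% of promoters. A match describes letters in the window and is not a binding site. The windows are Hspa5 at chr3:38452816-38453015 and Xbp1 at chr14:84604423-84604622, both on the plus strand, and Hsp90b1 at chr7:23012294-23012493, Herpud1 at chr19:10614708-10614907, Dnajb9 at chr6:67002052-67002251 and Trib3 at chr3:161275534-161275733, all on the minus strand. Each is printed 5′ to 3′ over the 200 bases that end just before the start, with the stress elements and the TGATGNAA matches in capitals. Hspa5, Hsp90b1, Xbp1 and Herpud1 are printed for their stress elements, Trib3 for its TGATGNAA match, and Dnajb9, which held neither kind of element, because its values below set chow apart.
Hspa5: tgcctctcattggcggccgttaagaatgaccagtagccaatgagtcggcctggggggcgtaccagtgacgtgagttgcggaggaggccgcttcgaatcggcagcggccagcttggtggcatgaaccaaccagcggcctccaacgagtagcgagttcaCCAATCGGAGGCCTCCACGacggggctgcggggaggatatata
Hsp90b1: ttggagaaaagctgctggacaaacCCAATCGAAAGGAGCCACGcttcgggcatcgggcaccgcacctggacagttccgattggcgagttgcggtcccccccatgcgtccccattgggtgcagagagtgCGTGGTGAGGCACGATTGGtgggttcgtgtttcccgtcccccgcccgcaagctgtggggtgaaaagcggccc
Xbp1: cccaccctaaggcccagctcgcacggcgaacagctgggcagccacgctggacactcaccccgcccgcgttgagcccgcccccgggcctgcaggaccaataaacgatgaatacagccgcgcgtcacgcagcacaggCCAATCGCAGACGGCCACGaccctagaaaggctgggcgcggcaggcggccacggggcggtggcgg
Herpud1: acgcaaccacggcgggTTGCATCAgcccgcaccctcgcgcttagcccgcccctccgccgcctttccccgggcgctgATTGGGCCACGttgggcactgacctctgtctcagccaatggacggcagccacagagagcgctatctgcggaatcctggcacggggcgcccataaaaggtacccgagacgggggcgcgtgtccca
Dnajb9: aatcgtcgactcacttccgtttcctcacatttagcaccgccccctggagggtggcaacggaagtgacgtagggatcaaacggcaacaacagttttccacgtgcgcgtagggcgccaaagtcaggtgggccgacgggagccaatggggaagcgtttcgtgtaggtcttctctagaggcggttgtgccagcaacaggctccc
Trib3: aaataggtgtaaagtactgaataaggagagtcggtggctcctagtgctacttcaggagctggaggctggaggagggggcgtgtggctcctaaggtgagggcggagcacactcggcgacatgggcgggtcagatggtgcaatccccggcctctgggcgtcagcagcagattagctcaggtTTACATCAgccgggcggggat

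The values were MAS5 signals, an intensity on a linear scale that the authors had scaled to the same trimmed mean on every array. Array medians lay between 28.7 and 31.9 except for the second lard array, at 36.8, which also had the lowest mean correlation with the arrays of other diets, 0.924. A signal at or below 12.8, the highest reading of the bacterial trp control, was treated as not above background. In whole liver, fewer cells of a type and less RNA per cell cannot be told apart. The 8 annotated hepatocyte markers were above background on every array, with a summed signal of 58453 to 67058. The 11 annotated macrophage markers (Marco and Vsig4 were not annotated) were above background on every array as well, and their summed signal was 3731 to 4011 with fish oil against 4513 to 6099 on the other 8 arrays. The red blood cell markers (3 of 4 annotated) summed to 4290 to 5790 with fish oil and 5499 to 10140 elsewhere. Of the T, B and plasma cell markers, 9 of 11 were annotated, and Cd3d and Cd79b were at or below background on every array. The sums were 236.7 to 237.9 with fish oil and 256.2 to 389.9 elsewhere. Of these markers only Ptprc had both fish oil arrays below all others (61.6 and 47.7, against 74.8 to 115). Jchain was higher with fish oil (47.4 and 50) than with chow (38.4 and 41.8). The part of these shifts in the fish oil values below was not tested.

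No member passed the test in any comparison between diets. Differences are given as log2 fold changes of signal + 3.1, a scale that understates the change of dim genes, from limma fitted to all 10 arrays with Benjamini-Hochberg adjustment over all 18623 probe sets and a threshold of 0.05. With fish oil against chow, 0 of 11 member probe sets passed (background 0.183%), and 4 had an unadjusted P under 0.05 (background 7.66%): Hsp90b1, Asns and 1 Trib3 probe set were higher and Dnajb9 lower. Asns reached the filter on dim probe sets only through fish oil: its mean signal was 20.45 over all arrays and 13.1 over the other 8, against a minimum of 20.16, so its place in counts of fish oil differences was set by the filter. Without it, 3 of 10 were under 0.05 unadjusted. With fish oil against the other 3 high-fat diets averaged, 0 of 11 passed (background 0.44%) and 4 were under 0.05 unadjusted (background 11.8%), all higher: Hsp90b1, Asns, Xbp1 and the same Trib3 probe set; without Asns it was 3 of 10. Both comparisons use the same fish oil arrays. Against chow, 0 of 11 passed with lard (background 0.0161%), olive oil (0.0805%) and coconut fat (0%), and 0 of 11 for the mean of the 4 high-fat diets (0.0644%). In each of these, 1 of 11 was under 0.05 unadjusted, Dnajb9, where the background was 7.94% for lard, 8.34% for olive oil, 5.48% for coconut fat and 6.69% for the mean. These comparisons share the chow arrays. With olive oil against lard, 0 of 11 passed (background 0%) and 1 was under 0.05 unadjusted, Hsp90b1 (background 6.27%). With coconut fat against the mean of lard and olive oil, 0 of 11 passed (background 0%) and 0 were under 0.05 unadjusted (background 6.77%). In the F-test for any difference among the 5 diets, 0 of 11 passed (background 0.14%) and 2 were under 0.05 unadjusted, Hsp90b1 and Dnajb9 (background 9.51%). Without Asns, the median log2 fold change of the other 10 probe sets was 0.27 with fish oil against chow, beside -0.01 over all probe sets tested, and 0.25 against the other high-fat diets, beside -0.02. It was -0.19 with lard against chow, beside 0.04 over all, and -0.02 and -0.05 with olive oil and coconut fat. The 3 Trib3 probe sets count separately in these medians; with 1 probe set for each of the 8 genes the median with fish oil was 0.07 against chow and 0.05 against the other high-fat diets.

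**Figure D1:**
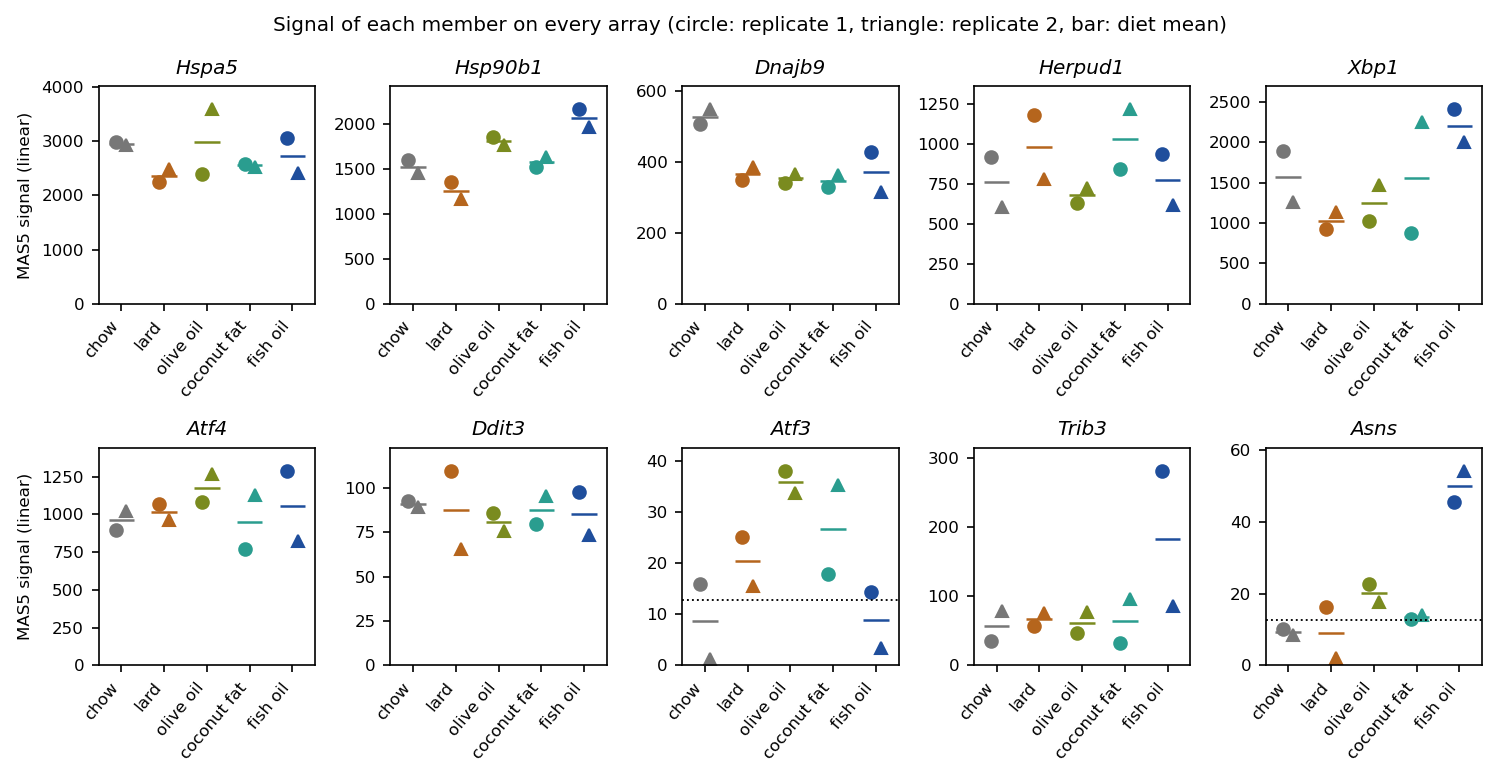
MAS5 signal (linear, y axis, own range in each panel) of the 10 genes on every array, by diet; circles are replicate 1, triangles replicate 2, bars the diet mean, and the dotted line, drawn for Atf3 and Asns, marks the background bound of 12.8. Trib3 is shown by 1386321_s_at. Both chow arrays of Dnajb9 lie above all 8 high-fat arrays, both fish oil arrays of Hsp90b1 and Asns lie above the other 8, and the coconut fat arrays of Xbp1 and the fish oil arrays of Trib3 lie far apart.

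Among the chaperones, Dnajb9, a J-domain partner of Hspa5, was the member whose chow values stood apart. Its signal (1387116_at) was 507.5 and 548.0 with chow, 348.3 and 385.3 with lard, 340.2 and 367.2 with olive oil, 329.4 and 363.6 with coconut fat, and 427.3 and 314.9 with fish oil. Every high-fat array was thus below both chow arrays, and the high-fat diets overlapped one another. Of all tested probe sets, 2.5% had all 8 high-fat arrays below both chow arrays, and Dnajb9 was 1 of 11 among the members. The diet means were 527.8 ± 28.6 with chow, 366.8 ± 26.2 with lard, 353.7 ± 19.1 with olive oil, 346.5 ± 24.2 with coconut fat and 371.1 ± 79.5 with fish oil (SD, n = 2 each). The mean of the 4 high-fat diets was 1.47-fold lower than chow, a log2 fold change of -0.55 ± 0.14 (SE), with a 95% interval of -0.86 to -0.25 and a limma adjusted P of 0.317. By diet the log2 fold change against chow was -0.52 with lard, -0.57 with olive oil, -0.60 with coconut fat and -0.52 with fish oil, with limma adjusted P of 0.497, 0.392, 0.737 and 0.469. The fish oil value depended on which array was kept, being -0.30 when the second fish oil array was left out and -0.74 when the first was. Fish oil differed from the other high-fat diets by 0.05, with an interval of -0.27 to 0.36.

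Hsp90b1, the endoplasmic reticulum member of the HSP90 chaperones, had its lowest values with lard and its highest with fish oil. Its signal (1388331_at) was 1596.0 and 1448.2 with chow, 1350.8 and 1161.5 with lard, 1853.5 and 1765.5 with olive oil, 1517.3 and 1629.1 with coconut fat, and 2157.8 and 1966.1 with fish oil. Neither lard array reached any array of another diet, both olive oil arrays were above all chow, lard and coconut fat arrays, and both fish oil arrays were above all others. Besides Asns, which the filter admitted through fish oil, Hsp90b1 was 1 of 10 member probe sets with both fish oil arrays above the other 8, as were 3.73% of all tested probe sets. In order, the diet means were 1256 ± 134 with lard, 1522 ± 105 with chow, 1573 ± 79.1 with coconut fat, 1810 ± 62.2 with olive oil and 2062 ± 136 with fish oil (SD, n = 2 each). Chow and coconut fat overlapped; the other neighbours in this order did not. Against chow, fish oil was 1.35-fold higher, a log2 fold change of 0.44 ± 0.13 (SE; 95% interval 0.14 to 0.73) with a limma adjusted P of 0.388. Against the other 3 high-fat diets it was 1.35-fold higher, 0.43 ± 0.11 (0.19 to 0.67), with a limma adjusted P of 0.139. Olive oil against lard gave 0.53 ± 0.13 (0.24 to 0.82) and a limma adjusted P of 0.669, and the F-test over the 5 diets an adjusted P of 0.226.

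Hspa5, the most widely used indicator of this response and the chaperone that holds the sensors inactive, was lower with lard and coconut fat than with chow on every array, with no difference past the test. Its signal (1370283_at) was 2972.4 and 2928.6 with chow, 2238.7 and 2480.5 with lard, 2393.3 and 3582.3 with olive oil, 2579.5 and 2523.3 with coconut fat, and 3059.1 and 2402.7 with fish oil. Both lard arrays lay below both coconut fat arrays, and these below both chow arrays, while olive oil and fish oil had arrays on either side of chow. The highest and the lowest array were 1.6-fold apart, and the olive oil arrays alone spanned most of that range. The log2 fold change against chow was -0.32 with lard (95% interval -0.73 to 0.08) and -0.21 with coconut fat (-0.62 to 0.20), with limma adjusted P of 0.7 and 0.968, and olive oil against lard gave 0.31 (-0.09 to 0.72; limma adjusted P = 0.837). The log2 fold change with fish oil was -0.12 against chow (95% interval -0.53 to 0.28) and 0.06 against the other high-fat diets (-0.27 to 0.39), with limma adjusted P of 0.956 and 0.929. Differences within these intervals were not detectable with 2 arrays a diet.

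Herpud1, which helps to retrieve misfolded proteins from the membrane for degradation, varied more between arrays of a diet than between diets. Its signal (1367741_at) was 921.5 and 604.4 with chow, 1185.4 and 780.6 with lard, 634.6 and 727.2 with olive oil, 845.1 and 1218.4 with coconut fat, and 939.7 and 616.5 with fish oil. The lowest and the highest array were 2.02-fold apart, and each diet overlapped chow. Fish oil differed from chow by 0.03 on the log2 scale (95% interval -0.59 to 0.65; limma adjusted P = 0.994).

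Xbp1, the transcription factor downstream of IRE1, reached its highest diet mean with fish oil and its lowest with lard. Its signal (1371249_at), which does not tell spliced from unspliced mRNA here, was 1894.6 and 1255.0 with chow, 922.2 and 1131.7 with lard, 1022.6 and 1466.8 with olive oil, 873.0 and 2247.3 with coconut fat, and 2406.8 and 2000.7 with fish oil. The 2 coconut fat arrays were 2.57-fold apart, and the higher of them lay between the 2 fish oil arrays. Both lard arrays were below both chow arrays. The means were 1027 ± 148 with lard, 1245 ± 314 with olive oil, 1560 ± 972 with coconut fat, 1575 ± 452 with chow and 2204 ± 287 with fish oil (SD, n = 2 each). Fish oil was 1.82-fold above the other high-fat diets, a log2 fold change of 0.86 ± 0.30 (SE; 95% interval 0.21 to 1.51) with a limma adjusted P of 0.276. Without the second coconut fat array it was 1.09 with an adjusted P of 0.0585, the lowest for any member in any setting, and without the first 0.64. Against chow it was 0.51 (-0.29 to 1.31; limma adjusted P = 0.84).

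**Figure D2:**
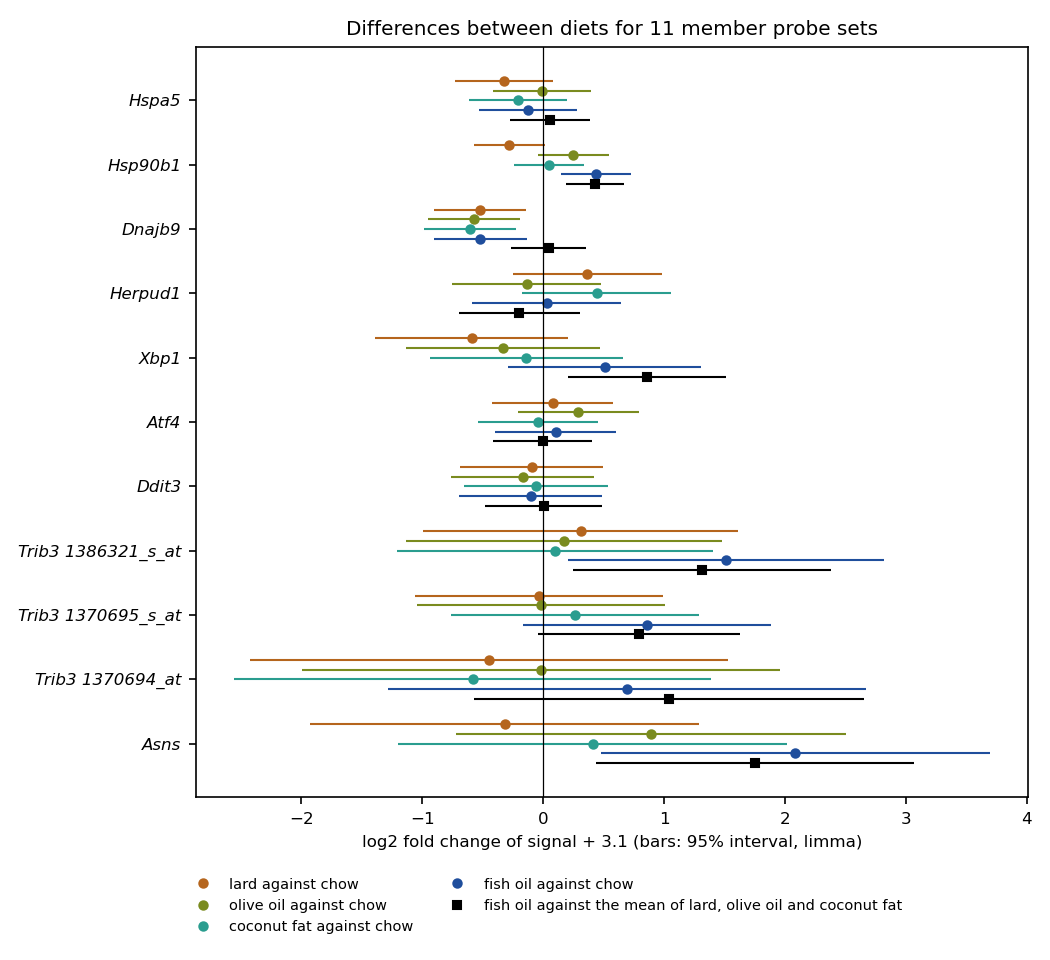
Log2 fold change of signal + 3.1 (x axis) for the 11 tested member probe sets, with the 95% interval from limma as bars; coloured points compare each high-fat diet with chow and black squares compare fish oil with the mean of lard, olive oil and coconut fat. The 4 diets lie together below 0 for Dnajb9, at -0.60 to -0.52, and spread over both sides of 0 for Hsp90b1, while the intervals of Trib3 and Asns are the widest.

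The transcription factors of the PERK and amino acid arm, Atf4 and Ddit3, had no diet apart from the others. Atf4 signal (1367624_at) was 898.0 and 1023.1 with chow, 1069.6 and 960.1 with lard, 1084.4 and 1269.1 with olive oil, 768.6 and 1127.8 with coconut fat, and 1287.7 and 825.0 with fish oil. The olive oil arrays were both above the chow arrays, and the other high-fat diets overlapped chow. Fish oil differed from chow by 0.10 (95% interval -0.40 to 0.60; limma adjusted P = 0.971). Ddit3, the factor CHOP that is linked to cell death under lasting stress, had a signal (1369590_a_at) of 92.7 and 89.5 with chow, 109.6 and 65.8 with lard, 86.1 and 75.6 with olive oil, 79.8 and 95.6 with coconut fat, and 97.6 and 73.2 with fish oil. Its diet means lay between 80.85 ± 7.42 with olive oil and 91.1 ± 2.26 with chow, and fish oil differed from chow by -0.10 (-0.70 to 0.49; limma adjusted P = 0.977).

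Atf3, a stress-induced repressor of transcription, fell just short of the filter on dim probe sets. Its mean signal was 20.09 against a minimum of 20.16. Its signal (1369268_at) was 15.9 and 1.3 with chow, 25.2 and 15.5 with lard, 38.1 and 33.8 with olive oil, 17.9 and 35.4 with coconut fat, and 14.3 and 3.5 with fish oil. The second chow and the second fish oil array were not above background. Both olive oil arrays were above all chow, lard and fish oil arrays and overlapped those of coconut fat. With readings at or below background set to 12.8, olive oil was at least 2.24-fold higher than chow, and the mean of lard, olive oil and coconut fat at least 1.77-fold higher than fish oil. With no probe set left out and readings as measured, limma gave 2.09 on the log2 scale for olive oil against chow. For fish oil against the mean of lard, olive oil and coconut fat it gave -1.46. The unadjusted limma P were 0.0187 and 0.0389, and the adjusted P 0.58 and 0.503 over 31042 probe sets. Both estimates rest in part on readings not above background, and the bounds carry no sampling error.

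Trib3, a pseudokinase induced by ATF4 and CHOP that dampens insulin signalling through Akt, had its highest value on 1 fish oil array. On 1386321_s_at its signal was 35.1 and 78.3 with chow, 56.9 and 76.5 with lard, 46.2 and 76.9 with olive oil, 32.8 and 96.6 with coconut fat, and 281.8 and 85.4 with fish oil. On 1370695_s_at it was 49.3 and 64.5 with chow, 48.4 and 62.4 with lard, 47.0 and 65.7 with olive oil, 50.4 and 92.1 with coconut fat, and 186.3 and 58.6 with fish oil. On 1370694_at it was 22.7 and 29.9, 15.3 and 21.8, 34.7 and 18.9, 3.8 and 51.9, and 93.3 and 20.0 with the diets in that order, the first coconut fat array being not above background. The first fish oil array was the highest on all 3 probe sets, and the second fish oil array was below the higher coconut fat array on each. The arrays of one diet were up to 3.3-fold apart on the first probe set, with fish oil. The log2 fold change with fish oil against chow was 1.51 ± 0.59 (SE), 0.86 and 0.69 on the 3 probe sets, with limma adjusted P of 0.57, 0.733 and 0.938. On the first it was 0.67 when the first fish oil array was left out and 2.35 when the second was. Against the other high-fat diets it was 1.32 (limma adjusted P = 0.304), and 0.47 with the first fish oil array left out or 2.16 with the second left out.

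Asns, the enzyme that makes asparagine and a standard target of ATF4, was close to background with every diet except fish oil. Its signal (1387925_at) was 10.2 and 8.6 with chow, 16.2 and 2.1 with lard, 22.8 and 17.6 with olive oil, 12.9 and 14.1 with coconut fat, and 45.7 and 54.3 with fish oil. Both fish oil arrays were above the other 8, and both chow arrays and the second lard array were not above background. Because neither chow array was above background, fold changes are given as bounds with readings at or below background set to 12.8. These bounds describe the means of these arrays and carry no sampling error. With means of 50 ± 6.08 and 9.4 ± 1.13 (SD, n = 2 each), fish oil was at least 3.33-fold higher than chow. The difference as measured, not the bound, was 2.085 on the log2 scale (95% interval 0.48 to 3.69), with a limma adjusted P of 0.5. It rests on chow readings not above background. Asns reached the filter on dim probe sets only through fish oil, so its tests of fish oil are not independent of that choice. The bounds against chow were 1.46-fold for olive oil and 1.04-fold for coconut fat, whose arrays lay just above 12.8. As measured, these log2 fold changes were 0.89 (95% interval -0.72 to 2.50) and 0.41 (-1.20 to 2.02). Their limma adjusted P were 0.792 and 0.984, so neither diet can be said to differ from chow. Against the other high-fat diets, where 1 of 6 arrays was not above background and was set to 12.8, fish oil was at least 2.8-fold higher. The difference as measured was 1.76 on the log2 scale (95% interval 0.44 to 3.07), with a limma adjusted P of 0.27.

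The members differed in how far arrays of the same diet lay apart. The within-diet SD was 0.51 on the log2 scale for Xbp1, 3.27 times the value that limma's trend gave for probe sets of that brightness, and 98.9% of tested probe sets had a lower ratio. The ratio was 2.26 for Herpud1, 2.11 to 2.94 for the 3 Trib3 probe sets, 1.77 for Atf4 and 1.46 for Hspa5. Hsp90b1, with an SD of 0.10 and a ratio of 0.644, Dnajb9, with 0.16 and 0.866, and Asns, with 0.62 and 0.754, had ratios below 1, though 3 of the 10 Asns values were not above background.

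**Figure D3:**
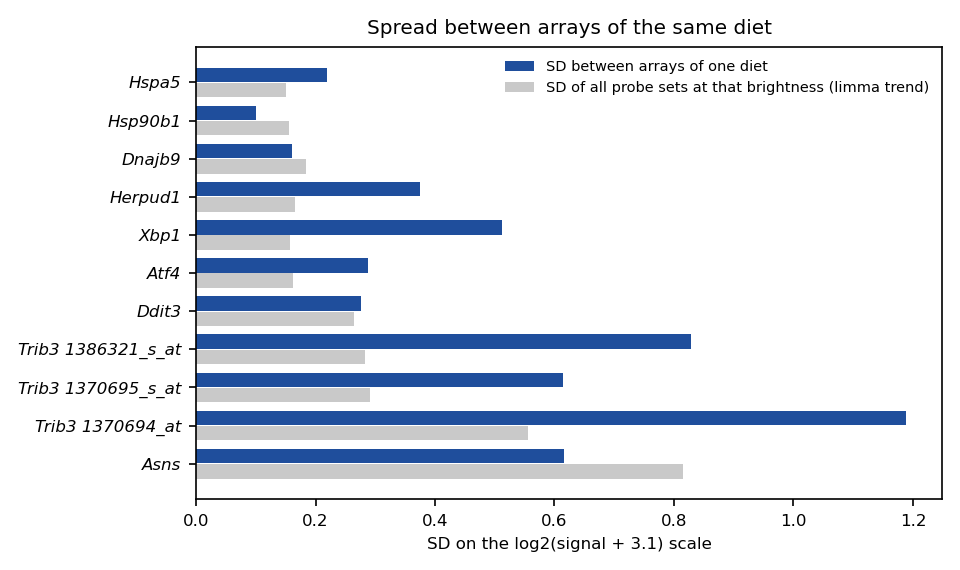
SD between the 2 arrays of one diet, pooled over the diets, on the log2(signal + 3.1) scale (x axis; blue) for the 11 tested member probe sets, beside the SD that limma's trend gives for probe sets of the same brightness (grey). Xbp1, Herpud1 and the 3 Trib3 probe sets exceed the grey bar by more than 2 times, and Hsp90b1, Dnajb9 and Asns fall short of it.

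Across the 10 arrays, 29 of the 36 pairs among the 9 tested genes (Trib3 by 1386321_s_at) had a Pearson correlation above 0, with a median of 0.246. The permutations shuffled all 10 arrays regardless of diet, so differences between diets and between arrays of a diet both enter these correlations. By Pearson correlation 1 pair passed, Hsp90b1 and Asns, at r = 0.90 (permutation P = 0.00062, 0.0223 after adjustment over 36 pairs) and a Spearman rho of 0.855 (permutation P = 0.00293, adjusted 0.105). Asns was among the tested genes only through its fish oil values, and Hsp90b1 was highest on the same arrays. This call is therefore not independent of the filter and is not evidence that the 2 genes vary together. Without the first fish oil and the second lard array r was 0.748, and the same array was the higher one for both genes in 4 of 5 diets. That call did not hold once the 3 Asns values at or below background were set to the bound of 12.8. For this pair r was then 0.782 (permutation P = 0.00471, adjusted 0.17), and the same array was the higher one in 3 of 5 diets. Chow could not be among these 3, because both its Asns values were then tied at 12.8. With the values so set, 0 of 36 pairs passed, with 3 under 0.05 unadjusted. Without Asns 0 of 28 pairs passed, with 2 under 0.05 unadjusted. Among the 3 genes that carry the stress response element no pair passed, and whether pairs differed in correlation was not tested. Hspa5 and Hsp90b1 had r = 0.31 (permutation P = 0.376, adjusted 0.849; rho 0.261, P = 0.471, adjusted 0.807), and r was -0.05 without the first fish oil and the second olive oil array. Hspa5 and Xbp1 had r = 0.37 (permutation P = 0.288, adjusted 0.849; rho 0.455, P = 0.19, adjusted 0.713), and 0.311 without the same arrays. Hsp90b1 and Xbp1 had r = 0.60 (permutation P = 0.0703, adjusted 0.506; rho 0.624, P = 0.06, adjusted 0.534), and 0.454 without the first fish oil and the second lard array. Atf4 and its target Trib3 had r = 0.63 (permutation P = 0.0442, adjusted 0.506; rho 0.564, P = 0.0957, adjusted 0.574), and 0.703 without the first coconut fat and the second fish oil array. For deviations from the diet means, r was 0.92 for Atf4 and Trib3, and 0.71 for Hsp90b1 and Asns (0.3975 with Asns set to the bound). It was -0.12 for Hspa5 and Hsp90b1, 0.36 for Hspa5 and Xbp1, and 0.31 for Hsp90b1 and Xbp1. These within-diet values were not tested.

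**Figure D4:**
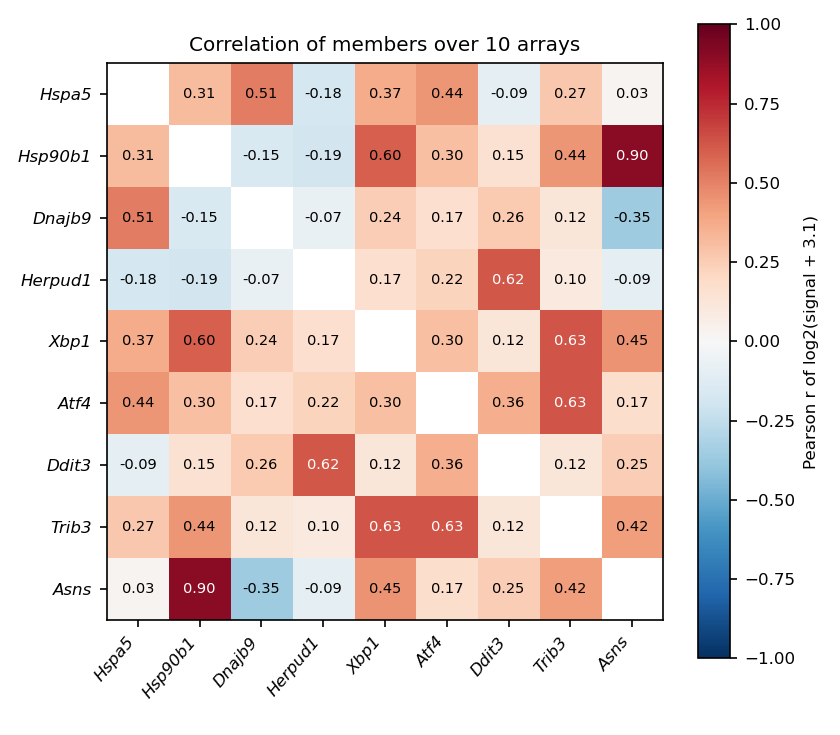
Pearson correlation of log2(signal + 3.1) over the 10 arrays for each pair of the 9 tested genes, as colour (scale from -1 to 1) and number. Hsp90b1 with Asns, at 0.90, is the 1 pair past the adjusted threshold, which it does not pass at 0.782 with Asns values below background set to the bound, and Dnajb9 with Asns, at -0.35, is the lowest. Asns reached the filter on dim probe sets only through fish oil, so its pairs are not independent of that filter.

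Among 10459 other genes, those most like each member over the 10 arrays by Pearson r were as follows, as a description with no test. Dnajb9 was most like Rrp8 (0.954) and Secisbp2 (0.944), Hsp90b1 like Mybbp1a (0.921) and Cc2d1b (0.914), and Asns, with the same 3 values not above background, like Cc2d1b (0.959) and Pter (0.954). Trib3 was most like Lrrc8d (0.955), and Atf4 like Clec1a (0.914) and Fgf21 (0.901). Xbp1 was most like Topors (0.908) and Cnn3 (0.895), Hspa5 like Mcfd2 (0.886) and Cldn12 (0.885), Herpud1 like Ly6e (0.92) and Setd5 (0.918), and Ddit3 like Ints4 (0.933) and Mysm1 (0.894).

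Other genes of the same pathways, taken by the brightest probe set, gave 0 past the adjusted threshold in any comparison by limma, out of 99 tested in 8 lists. Of 18 further chaperones and folding enzymes of the endoplasmic reticulum, 2 were under 0.05 unadjusted with fish oil against chow, where 8.56% of all 10468 genes were, and their median log2 fold change was 0.04. The oxidase Ero1b had a signal of 411.5 ± 4.53 with chow and 220.7 ± 107 with fish oil (SD, n = 2 each), and the disulfide isomerase Txndc5 306.6 ± 30.6 and 450.2 ± 54.4. Their log2 fold changes were -0.98 and 0.55, with limma adjusted P of 0.366 and 0.404. With olive oil against lard, 6 of the 18 were under 0.05 unadjusted (5.79% of all genes) and 14 were above 0 (48.1% of all genes). The median was 0.24, beside -0.01 over all genes. Of 13 genes of degradation and translocation at the endoplasmic reticulum, 0 were under 0.05 unadjusted with fish oil against chow, the segregase Vcp being at -0.21 and Derl2 at -0.17.

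Of 12 genes for stress sensors and control of eIF2alpha, 1 was under 0.05 unadjusted in that comparison (8.33%, beside 8.56% of all genes). This was Eif2ak3, which encodes PERK, at 93.55 ± 18.6 with chow and 48.5 ± 21.9 with fish oil (SD, n = 2 each), a log2 fold change of -0.96 ± 0.31 (SE) with a limma adjusted P of 0.446. The double-stranded RNA sensor Eif2ak2 was at -0.46. For 13 other ATF4 and CHOP targets or regulators the median was 0.14, beside -0.007 over all genes. Of them, 2 were under 0.05 unadjusted (15.4%, beside 8.56% of all genes). These, named after their values were seen, were Ddit4, an inhibitor of mTORC1 signalling, which was lower, and the stress-induced chromatin protein Nupr1, which was higher. Ddit4 was at 114.2 ± 6.79 with chow and 56.6 ± 3.25 with fish oil (SD, n = 2 each), -0.97 on the log2 scale with a limma adjusted P of 0.259. Nupr1 was at 278.4 ± 43.6 with chow, 585 ± 170 with fish oil and 860.3 ± 313 with olive oil (SD, n = 2 each), 1.04 and 1.58 on the log2 scale with limma adjusted P of 0.306 and 0.132. It was also higher than chow with lard, at 485.85 ± 140, and coconut fat, at 409.8 ± 38.5 (SD, n = 2 each). These were 0.78 and 0.56 on the log2 scale, with limma adjusted P of 0.547 and 0.95. Fish oil differed from the other high-fat diets by 0.07 (limma adjusted P = 0.949). By the size of the fold change, the list was led by others. The hormone gene Fgf21 was at 30.8 ± 20.5 with chow and 202.8 ± 241 with fish oil (SD, n = 2 each), and at 1.91 ± 0.95 (SE) on the log2 scale with a limma adjusted P of 0.696, and the lipoprotein receptor Vldlr, with 1 chow array not above background, had means of 14.5 ± 12.6 and 30.15 ± 0.495 and an adjusted P of 0.705. Of 11 genes of amino acid synthesis and transport, 1 was under 0.05 unadjusted (9.09%, beside 8.56% of all genes). This was Cth, named after its values were seen, which makes cysteine from cystathionine and was lower with fish oil, at -0.44 with a limma adjusted P of 0.473. The largest fold changes on that list, of the transporter Slc7a1 and the serine synthesis enzyme Psat1, each had 1 chow array not above background, and neither was under 0.05 unadjusted; mean signals with chow and fish oil were 14.65 ± 14.6 and 31.4 ± 28.9 for Slc7a1 and 32.05 ± 31.9 and 49.45 ± 17.7 for Psat1 (SD, n = 2 each). Slc3a2, the heavy chain of amino acid exchangers, was chosen after its values were seen: it had the lowest adjusted P of the 99 genes, 0.0828 by limma, at 0.86 ± 0.18 (SE) with fish oil against the other high-fat diets. Against chow, Slc3a2 was at 0.18 with fish oil (limma adjusted P = 0.932), and the lard, olive oil and coconut fat diets were at -0.68, -0.80 and -0.55. Of 13 aminoacyl-tRNA synthetases, 1 was under 0.05 unadjusted with fish oil against chow (7.69%, beside 8.56% of all genes). This was Iars1, at 0.51 (limma adjusted P = 0.605). Yars1 was at 0.31, and the median was 0.18, beside -0.007 over all genes.

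**Figure D5:**
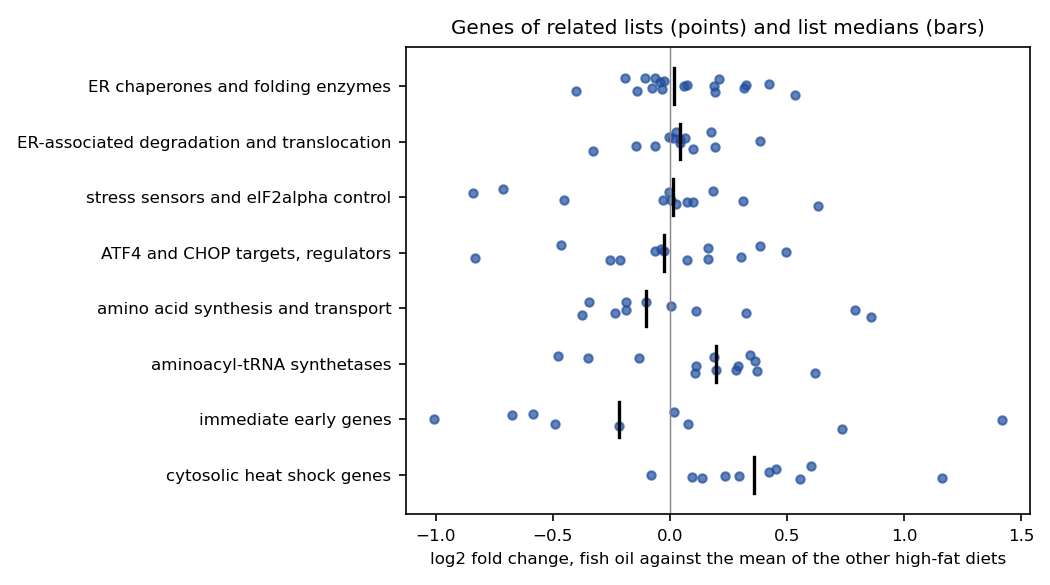
Log2 fold change with fish oil against the lard, olive oil and coconut fat diets averaged (x axis) for each tested gene (points) of 8 related lists, with the list median as a bar. List medians lie between -0.22 for the immediate early genes and 0.36 for the cytosolic heat shock genes, and no gene passed the adjusted threshold.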

How the data were processed

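Liver RNA of 10 samples, 2 for each of 5 diets, was hybridised to Affymetrix rat arrays, and diets were taken from the sample titles. Per the submitters' processing notes, the authors computed the deposited signal intensity with MAS5, on a linear scale, with no software version given in the sources used here; no further scaling was applied. The 57 control probe sets were removed, log2(signal + 3.1) was taken of 31042 values per array, the offset being their 10th percentile, and the 40% with the lowest mean signal (under 20.16) were left out, 12419 in all. Symbols came from the platform annotation. limma 3.58.1 in R 4.3.3 fitted 1 mean per diet to all 10 arrays, with trended empirical Bayes variances (5 residual and 6.09 prior degrees of freedom), and was tested on simulated data. P-values were adjusted by Benjamini-Hochberg over 18623 probe sets, two-sided. Correlations used SciPy 1.17.1 in Python 3.11.15 with 1e+05 permutations. Alternatives changed the offset, dim filter, scaling, variance model, samples fitted, block, threshold and arrays. Every member was named; from each related list, genes past the threshold were named, or otherwise the 2 with the largest absolute fold change with fish oil against chow. The members and lists were chosen with earlier results of these data known.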

Additional observations from a re-analysis of the deposited data

Results flagged for a closer look

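Hsp90b1 lay on opposite sides of chow in different diets: both lard arrays lay below both chow arrays, and both olive oil and both fish oil arrays lay above them. Olive oil minus lard was 0.53 on the log2 scale (limma adjusted P = 0.669 for that difference), and fish oil minus lard was 0.72. For Xbp1, both lard arrays lay below and both fish oil arrays above both chow arrays, and fish oil minus lard was 1.10. The share of all tested probe sets that lay on both sides of chow in this way was not counted. Whether these members differ from the other probe sets in this cannot be told. The differences between fish oil and lard alone were not tested; fish oil was tested against the mean of lard, olive oil and coconut fat. With 2 arrays a diet, single arrays far from the rest of their diet could not be screened for.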

How the results depend on the processing

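The count of member probe sets past the adjusted threshold was 0 in all 9 comparisons and in all 196 combinations of comparison and alternative that were run, and none of the members' differences with an unadjusted P under 0.05 changed sign in any of them. The lowest adjusted P of any member was 0.0585, for Xbp1 with fish oil against the other high-fat diets and without the second coconut fat array. Over the alternatives and left-out arrays, the log2 fold change with fish oil against the other high-fat diets was 0.36 to 0.50 for Hsp90b1, 0.64 to 1.09 for Xbp1 and 0.47 to 2.16 for Trib3, and the mean of the high-fat diets against chow was -0.61 to -0.50 for Dnajb9. With the replicate number as a block the counts were 0 too, with a lowest adjusted P of 0.147; deviations of same-numbered arrays correlated at -0.03 to 0.07 over the 10 pairs of diets, so the numbers were not taken to pair samples. The count of correlated pairs of members past the threshold was 1 as reported, 0 with values at or below background set to the bound, and 0 without Asns. Those 2 alternatives and a dim filter on the mean log2 value were added after seeing the data. Asns and the dimmest Trib3 probe set were not tested when the lowest 60% were left out, and 2 arrays a diet limit what can be detected.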

Other observations

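Genes of the cytosolic heat shock response, the counterpart of the endoplasmic reticulum response for proteins folded outside it, lay below chow with most diets. Of 13 listed genes 10 were tested, and Hspa8, Hsp90aa1 and Hspa1b had no probe set annotated to them alone. For the mean of the high-fat diets against chow, 2 of 10 were above 0, the mitochondrial Hspd1 and Hspe1. The list median log2 fold change was -0.29. With lard 0 were above 0, with a median of -0.32. Over all genes 48.9% were above 0 for the mean of the high-fat diets and 52.1% with lard, with medians of -0.008 and 0.015. With fish oil against the other high-fat diets 9 of 10 were above 0 (49.1% of all genes), with a median of 0.36, beside -0.01 over all 10468 genes. Against chow, 5 of 10 were above 0 with fish oil (49.1% of all genes), with a median of 0.01. By limma 0 passed the adjusted threshold in these comparisons. Those under 0.05 unadjusted were 2 of 10 for the mean of the high-fat diets (7.19% of all genes), 3 with lard (7.8%), 4 with fish oil against the other high-fat diets (13.1%) and 1 with fish oil against chow (8.56%). The mitochondrial chaperonin Hspd1, on the same list, had a signal of 2604 ± 233 with chow, 2411 ± 31 with lard, 2888 ± 166 with olive oil, 2707 ± 255 with coconut fat and 3636 ± 15.9 with fish oil (SD, n = 2 each), and a limma adjusted P of 0.274 for fish oil against chow. Dnajb1, a cytosolic J-domain cochaperone, was at 332.6 ± 10.5 with chow and 269.9 ± 122 with fish oil (limma adjusted P = 0.856).

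Of 9 immediate early genes, which respond within minutes to growth signals and stress, 3 were under 0.05 unadjusted with fish oil against chow (8.56% of all genes) and 5 against the other high-fat diets (13.1%), and 0 passed by limma. They went both ways: Ier3 and Myc were higher and Zfp36 lower in both comparisons, and Junb and Egr1 lower against the other high-fat diets. Ier3, named after its values were seen, was at 0.73 against the other high-fat diets (limma adjusted P = 0.0928). Myc had a signal of 50.25 ± 19.9 with chow and 207.6 ± 135 with fish oil (SD, n = 2 each), a log2 fold change of 1.87 ± 0.47 (SE) with a limma adjusted P of 0.244. Zfp36, which promotes decay of AU-rich mRNAs, had 434.9 ± 101 and 231.3 ± 11.7, a log2 fold change of -0.88 with a limma adjusted P of 0.236.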
